A study of Mus musculus with 12 samples.

Results

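The genes described here are 6 that platelets and their bone marrow precursors, megakaryocytes, are known for: Selp, Itga2b, Itgb3, Tubb1, Pf4 and Ppbp. They are 6 of the 24391 gene symbols in a table of read counts from CD11b dendritic cells (DCs), which show antigens to T cells and here bear the integrin CD11b, and all 6 were found by symbol. They were picked because earlier results on these libraries had drawn attention to them, so their own levels and fold changes are given as a description with no p-value, and nothing is read from how many of them passed a threshold. The study, titled as one of mice with established pulmonary fibrosis, used wild-type C57BL/6J mice of 8 to 12 weeks. Under xylazine and ketamine they had aspirated an adenovirus that cannot replicate, placed in the trachea. The control groups thus also received a virus: AdCL is the empty vector, and AdTGFb1 is the same kind of vector with a porcine gene for active TGF-β1. By their titles, experiment 1 comprised the AdCL libraries DC 7, 8 and 9 with the AdTGFb1 libraries DC 14, 52 and 54. Experiment 3 comprised the AdCL libraries DC 943, 944 and 949 with the AdTGFb1 libraries DC 954, 955 and 956. Whether each library is 1 animal or a pool, how the cells were gated and how long after the vector they were taken is not known from the labels, so every spread below is one between libraries, which may be technical.

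Platelets are cell fragments without a nucleus that circulate with RNA made in the megakaryocyte. On activation they bring P-selectin, the product of Selp, from granules to the surface, where it holds leukocytes through the ligand PSGL-1. Itga2b and Itgb3 encode the αIIb and β3 chains of the platelet fibrinogen receptor, Tubb1 encodes the β-tubulin of the platelet's marginal microtubule band, and Pf4 and Ppbp encode chemokines stored in α-granules. Selp is also made by endothelium, Itgb3 also pairs with the αv chain in many cells, and Pf4 transcripts also occur in some macrophages, while Itga2b and Tubb1 are the more restricted to the megakaryocyte lineage.

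Of the 6 genes, 5 had a promoter in the RefSeq table for GRCm38.p6. The 250 bases before the start of 4 of them are shown. Of these, Itga2b and Tubb1 were much alike across the libraries, and Selp and Pf4 each followed another pattern. Megakaryocyte genes are known for GATA and ETS factor sites near their starts, and the capitals mark every match to an ETS motif (AGGAAG or CGGAAG, on either strand, so also CTTCCT or CTTCCG). The Itga2b window lies at chr11:102469884-102470133 on the minus strand, that of Tubb1 at chr2:174450345-174450594, that of Selp at chr1:164115014-164115263 and that of Pf4 at chr5:90772185-90772434, the last 3 on the plus strand.
Itga2b: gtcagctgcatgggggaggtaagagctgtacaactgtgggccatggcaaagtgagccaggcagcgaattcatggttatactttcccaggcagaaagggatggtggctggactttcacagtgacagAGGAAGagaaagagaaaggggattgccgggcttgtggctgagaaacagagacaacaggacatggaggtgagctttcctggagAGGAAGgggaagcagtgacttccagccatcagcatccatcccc
Tubb1: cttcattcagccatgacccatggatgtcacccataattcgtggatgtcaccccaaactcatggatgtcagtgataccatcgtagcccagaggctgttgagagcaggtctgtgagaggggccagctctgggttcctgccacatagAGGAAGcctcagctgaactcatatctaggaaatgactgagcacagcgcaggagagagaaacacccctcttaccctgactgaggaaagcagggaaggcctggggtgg
Selp: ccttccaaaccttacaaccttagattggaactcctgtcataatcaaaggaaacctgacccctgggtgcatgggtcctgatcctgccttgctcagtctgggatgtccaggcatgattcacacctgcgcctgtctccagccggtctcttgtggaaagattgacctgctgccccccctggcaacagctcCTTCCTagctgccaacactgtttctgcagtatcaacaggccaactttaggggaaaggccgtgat
Pf4: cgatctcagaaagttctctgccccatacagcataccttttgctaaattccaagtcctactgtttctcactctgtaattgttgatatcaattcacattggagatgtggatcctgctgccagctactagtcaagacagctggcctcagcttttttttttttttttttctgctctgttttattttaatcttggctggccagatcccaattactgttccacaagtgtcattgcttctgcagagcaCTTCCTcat
Itga2b held 2 ETS matches, which began 125 and 43 bases before the start. Tubb1 held 1 at 106 bases, Selp 1 at 64 bases on the opposite strand and Pf4 1 at 9 bases on the opposite strand, and the window of Ppbp held none. Of 32851 promoter windows of the same length, 39.2% held such a match. A GATA motif (AGATAA or TGATAA, on either strand) was in 0 of the 5 windows and in 16.6% of all. A match is a string of letters and not a shown binding site, and no factor binding was measured here.

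The 12 libraries held 10099912 to 15594546 counts. A level is given as CPM, which divides a gene's reads by its library's total, here after a TMM factor that ran from 0.881 to 1.08, and 3 counts, the floor used for a gene without counts, came to 0.181 to 0.31 CPM. Correlations of log2 CPM between libraries of 1 group ran from 0.896 to 0.942. Of the markers of the labelled cell type, Itgax, which encodes CD11c, stood at 788 to 1241 CPM and Itgam, which encodes CD11b, at 276 to 561 CPM. Other genes of that list were lower with AdTGFb1, as given with the markers of other cells. From Xist and the Y-linked gene Ddx3y, AdCL DC 7, 8 and 9 and AdTGFb1 DC 14 were male and the other 8 libraries female, so in experiment 1 sex moved with the vector in all but 1 library. Experiment 3 was all female, so sex also moved with the experiment, fully so among the AdCL libraries. A term for sex was fitted only for the vector over both experiments. The part of sex in differences between the experiments, or in the interaction, was not tested.

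The 6 genes did not form 1 block. Itga2b and Tubb1 were high in the 3 AdCL libraries of experiment 1 and low in the other 9. Selp was high in the AdCL libraries of both experiments. Itgb3 was lower with AdTGFb1 in each experiment on top of a lower level in experiment 3, Pf4 was higher in experiment 3 and differed little by vector, and Ppbp was low and scattered. In bulk RNA, fewer cells (or platelets) of a type and less RNA in each cannot be told apart.

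**Figure D1:**
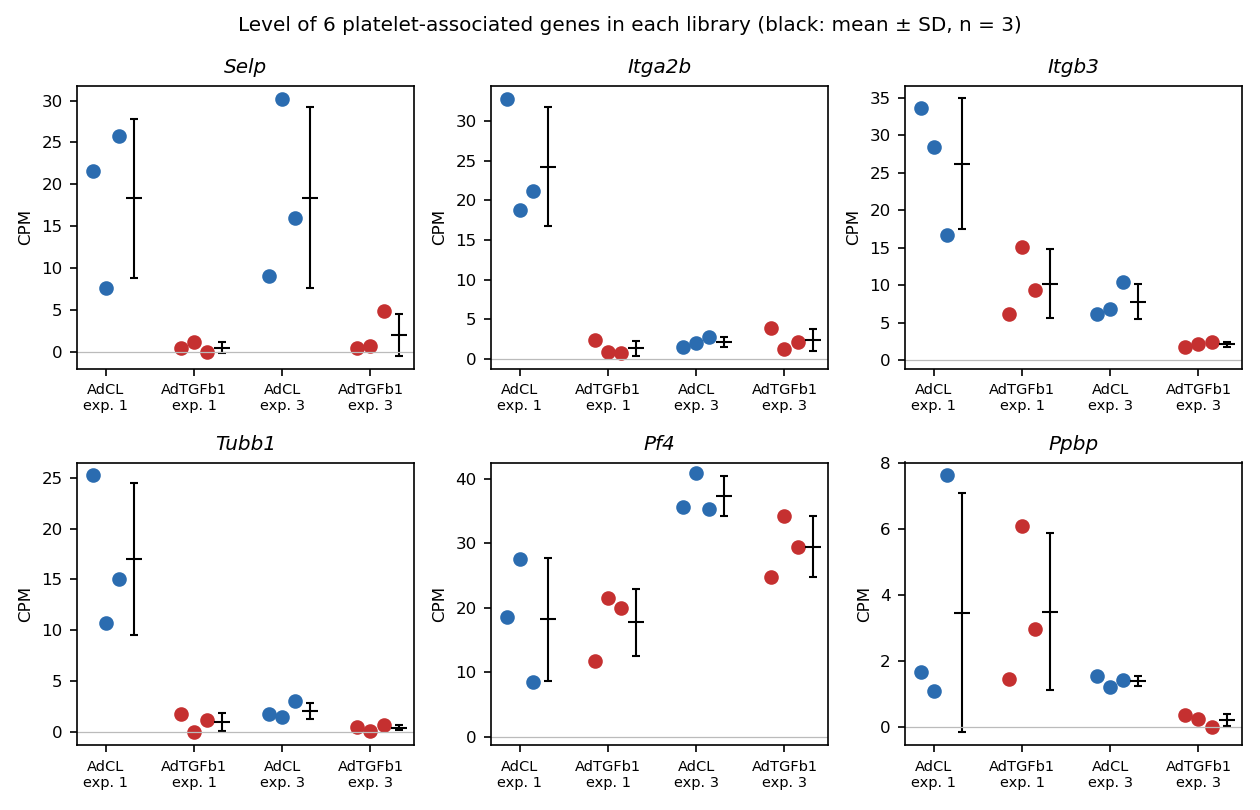
Level of each of the 6 genes in each library, in CPM, by vector (AdCL blue, AdTGFb1 red) and experiment; each point is 1 library and the black marks are the mean ± SD of 3. Itga2b lies between 18.7 and 32.8 CPM in the AdCL libraries of experiment 1 and at or below 3.91 CPM in the other 9, while Pf4 is highest in the AdCL libraries of experiment 3.

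Selp, the adhesion receptor, stood at 21.6, 7.66 and 25.8 CPM in AdCL DC 7, 8 and 9 and at 0.454, 1.22 and 0 CPM in AdTGFb1 DC 14, 52 and 54. Experiment 3 had 9.14, 30.2 and 15.9 CPM in AdCL DC 943, 944 and 949 and at 0.558, 0.719 and 4.95 CPM in AdTGFb1 DC 954, 955 and 956. All 6 AdTGFb1 libraries lay below all 6 AdCL libraries, which held for no other of the 6 genes; 4.46% of the 13221 genes tested were lower in this way over both experiments. Group means were 18.3 ± 9.48 and 0.557 ± 0.615 CPM in experiment 1 and 18.4 ± 10.8 and 2.08 ± 2.49 CPM in experiment 3 (AdCL and AdTGFb1, SD, n = 3 each). The log2 fold change with AdTGFb1, from a fit across all genes, was -5.02 ± 0.92 (SE) in experiment 1 and -3.12 ± 0.82 in experiment 3. In experiment 3 it ran from -4.83 without AdTGFb1 DC 956, the AdTGFb1 library with most Selp, to -2.55. In RefSeq's gene order Selp lies near its family member Sele, which encodes E-selectin, and precedes F5, which encodes coagulation factor V. Sele, an endothelial gene, had 43, 57 and 112 counts in the AdCL libraries of experiment 1 and 0 in all 3 AdTGFb1 libraries beside them. In experiment 3 it had 2, 34 and 12 counts in AdCL and 0, 16 and 19 in AdTGFb1, so there the groups of Sele overlapped. Whether Selp and Sele came from the same cells was not tested. F5 did not pass the test over both experiments (-1.20 ± 0.50, edgeR adjusted p = 0.108). By the same test it was called lower within experiment 1 (-2.03 ± 0.625, adjusted p = 0.0201) and not within experiment 3 (-0.36 ± 0.61, adjusted p = 0.84). Exons of Selp overlap the antisense gene Gm16548, which held 0 to 22 counts per library and 27 in all, 22 of them in AdCL DC 9.

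Itga2b, the αIIb chain, stood at 32.8, 18.7 and 21.2 CPM in AdCL DC 7, 8 and 9 and at 2.42, 0.931 and 0.688 CPM in AdTGFb1 DC 14, 52 and 54. The values of experiment 3 were 1.54, 2.04 and 2.81 CPM in AdCL DC 943, 944 and 949 and at 3.91, 1.2 and 2.11 CPM in AdTGFb1 DC 954, 955 and 956. The AdCL libraries of experiment 1 thus lay above all others, and the other 3 groups overlapped each other. These 3 libraries held 75.0% of the 977 Itga2b counts. The mean was 24.2 ± 7.50 CPM in them, against 1.35 ± 0.940 in AdTGFb1 of experiment 1, 2.13 ± 0.643 in AdCL of experiment 3 and 2.41 ± 1.38 in AdTGFb1 of experiment 3. The log2 fold change with AdTGFb1 was -4.16 ± 0.64 in experiment 1 and 0.17 ± 0.58 in experiment 3, which differ by 4.34 ± 0.85. Over both experiments it was -2.01 ± 0.78, but -0.68 with a term for sex and -2.80 with no term for the experiment. The part of sex in the level of Itga2b was not tested further: the AdTGFb1 group of experiment 1 held 1 male library, DC 14. The AdCL libraries were all male in experiment 1 and all female in experiment 3, so there sex and experiment cannot be told apart.

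Itgb3, the β3 chain that pairs with αIIb, stood at 33.6, 28.4 and 16.6 CPM in AdCL DC 7, 8 and 9 and at 6.14, 15.1 and 9.42 CPM in AdTGFb1 DC 14, 52 and 54. Libraries of experiment 3 held 6.15, 6.84 and 10.5 CPM in AdCL DC 943, 944 and 949 and at 1.74, 2.16 and 2.48 CPM in AdTGFb1 DC 954, 955 and 956. In each experiment the AdTGFb1 libraries lay below the AdCL libraries, and the AdTGFb1 libraries of experiment 1 overlapped the AdCL libraries of experiment 3. Means were 26.2 ± 8.68 and 10.2 ± 4.54 CPM in experiment 1 and 7.82 ± 2.31 and 2.13 ± 0.367 CPM in experiment 3. The log2 fold change with AdTGFb1 was -1.36 ± 0.43 in experiment 1 and -1.87 ± 0.46 in experiment 3, and that of experiment 3 against experiment 1 was -1.99 ± 0.32. AdCL was 2.56 and 3.68 times AdTGFb1 in experiments 1 and 3 by group means of Itgb3, where Itga2b gave 18.0 and 0.885 times. Itgav, the αv chain and the other partner of β3, was at 235 and 150 CPM in AdCL and AdTGFb1 of experiment 1 and at 175 and 207 CPM in experiment 3. It fell in experiment 1 (-0.65 ± 0.15, adjusted p = 0.00204), showed no call in experiment 3 (0.24 ± 0.15, adjusted p = 0.409), and its 2 effects differed (interaction adjusted p = 0.0103).

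Tubb1, the β-tubulin of the platelet microtubule band, stood at 25.2, 10.7 and 15.1 CPM in AdCL DC 7, 8 and 9 and at 1.74, 0 and 1.17 CPM in AdTGFb1 DC 14, 52 and 54. Tubb1 in experiment 3 was at 1.83, 1.47 and 3.02 CPM in AdCL DC 943, 944 and 949 and at 0.489, 0.16 and 0.664 CPM in AdTGFb1 DC 954, 955 and 956. As with Itga2b, the AdCL libraries of experiment 1 were far above the rest, with 78.4% of the 656 Tubb1 counts. Unlike Itga2b, the AdCL libraries of experiment 3 also lay above the AdTGFb1 libraries beside them, on 18 to 45 counts against 2 to 11. Means were 17 ± 7.43 and 0.970 ± 0.888 CPM in experiment 1 and 2.10 ± 0.811 and 0.438 ± 0.256 CPM in experiment 3. The log2 fold change with AdTGFb1 was -4.12 ± 0.93 in experiment 1 and -2.22 ± 0.90 in experiment 3.

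Pf4, the chemokine platelet factor 4, stood at 18.5, 27.6 and 8.55 CPM in AdCL DC 7, 8 and 9 and at 11.7, 21.5 and 19.9 CPM in AdTGFb1 DC 14, 52 and 54. Pf4 in experiment 3 was at 35.6, 40.9 and 35.3 CPM in AdCL DC 943, 944 and 949 and at 24.8, 34.2 and 29.4 CPM in AdTGFb1 DC 954, 955 and 956. The vectors overlapped in experiment 1 and did not in experiment 3, where 12.9% of genes tested were lower without overlap. Means were 18.2 ± 9.51 and 17.7 ± 5.24 CPM in experiment 1 and 37.3 ± 3.13 and 29.4 ± 4.70 CPM in experiment 3. The log2 fold change with AdTGFb1 was -0.04 ± 0.34 in experiment 1 and -0.34 ± 0.33 in experiment 3. That of experiment 3 against experiment 1 was 0.88 ± 0.25, in the direction opposite to Itgb3.

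Ppbp, the precursor of platelet basic protein and neighbour of Pf4, stood at 1.65, 1.09 and 7.62 CPM in AdCL DC 7, 8 and 9 and at 1.44, 6.09 and 2.96 CPM in AdTGFb1 DC 14, 52 and 54. Ppbp in experiment 3 was at 1.54, 1.22 and 1.41 CPM in AdCL DC 943, 944 and 949 and at 0.349, 0.24 and 0 CPM in AdTGFb1 DC 954, 955 and 956. AdCL DC 9 and AdTGFb1 DC 52 held most of it, 82 and 85 of 316 counts, and the last 3 libraries held 5, 3 and 0 counts. The log2 fold change with AdTGFb1 was 0.01 ± 1.16 in experiment 1, or 1.38 without AdCL DC 9, and -2.79 ± 1.30 in experiment 3. RefSeq places Cxcl5, Ppbp, Pf4, Cxcl3, Cxcl15, Cxcl1 and Cxcl2 in this order. Of these neutrophil-attracting neighbours, Cxcl1 fell over both experiments (-0.82 ± 0.20, adjusted p = 0.00839), as did Cxcl15 (-3.45 ± 0.86, adjusted p = 0.00858) and Cxcl2 (-0.44 ± 0.14, adjusted p = 0.0322). Within experiment 3 alone, edgeR's test called none of Cxcl1 (adjusted p = 0.107), Cxcl15 (0.219) and Cxcl2 (0.236). Over both experiments Cxcl3 did not pass (-0.73 ± 0.32, adjusted p = 0.139) and Cxcl5 was too low to test. Cxcl2, Cxcl3, Cxcl5 and Cxcl15 are named as neighbours, after their values were seen.

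**Figure D2:**
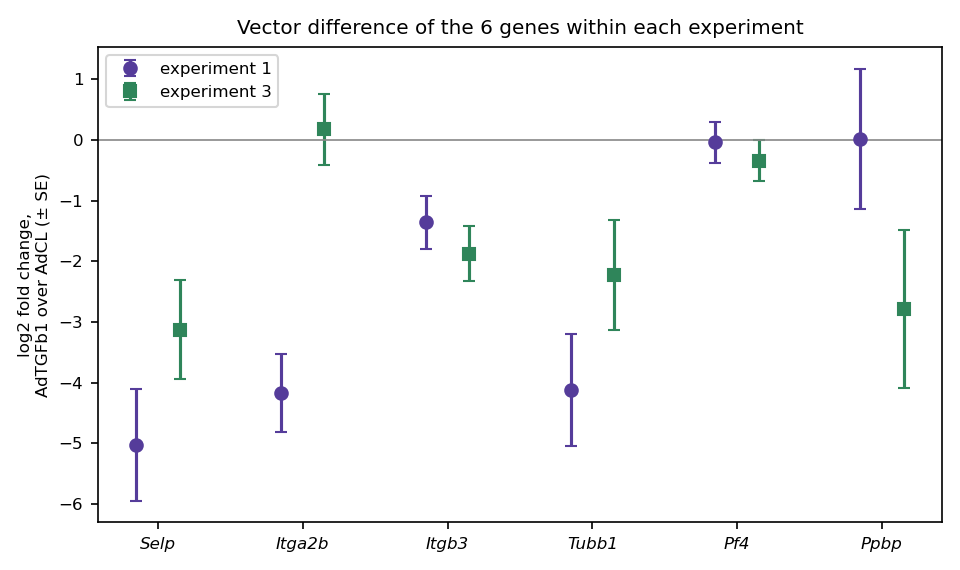
Log2 fold change of AdTGFb1 against AdCL for each of the 6 genes in experiment 1 and in experiment 3, with bars of ± SE from the fit. Itga2b lies at -4.16 in experiment 1 and 0.17 in experiment 3, and Pf4 lies near 0 in both.

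At an adjusted p under 0.05, edgeR's test called 3 of the 6 lower with AdTGFb1 over both experiments (Selp, Tubb1 and Itgb3) and 0 higher, beside 10.4% and 6.78% of all genes. Within experiment 1 it called 4 lower (these and Itga2b) and 0 higher, beside 14.1% and 10.6%. Within experiment 3 it called 2 lower (Selp and Itgb3) and 0 higher, beside 4.46% and 1.97%. For experiment 3 against experiment 1 it called 1 lower (Itgb3) and 1 higher (Pf4), beside 2.86% and 3.57%. For the interaction it called 0 lower and 1 higher (Itga2b), beside 2.59% and 3.43%, or 6.02% in either direction. Groups did not overlap for 4 of the 6 in experiment 1 and for 5 of the 6 in experiment 3, all lower with AdTGFb1, beside 21.6% and 12.9% of all genes lower in this way, and 18.8% and 11.5% higher. Over both experiments 1.86% of all genes were higher without overlap. The 6 genes were chosen with these contrasts known, so nothing is read from these counts. Itga2b was also called over both experiments with DESeq2, with no filter on low counts, with no term for the experiment, and without AdCL DC 943 or AdTGFb1 DC 954. Without a term for the experiment, Itgb3 was no longer called over both. In experiment 1 it was lost without AdCL DC 7 or 8 or AdTGFb1 DC 14 or 54, and in experiment 3 without AdCL DC 949 or AdTGFb1 DC 954. The call of Selp in experiment 3 was lost without AdCL DC 944 or AdTGFb1 DC 954 or 955. The higher call of Pf4 in experiment 3 was lost in 8 of 16 other settings, each without 1 library: AdCL DC 7, 9, 943, 944 or 949 or AdTGFb1 DC 14, 955 or 956.

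Between genes, levels were compared as CPM per kilobase of the longest annotated transcript. On that scale Pf4 led each group, with means of 31.0 and 30.1 in AdCL and AdTGFb1 of experiment 1 and 63.4 and 50.1 in experiment 3. In AdCL of experiment 1 Tubb1 followed at 12.1, then Itga2b at 7.05, Selp at 5.33, Itgb3 at 4.53 and Ppbp at 3.19 CPM per kilobase. In AdTGFb1 of experiment 3 the other 5 genes had means between 0.181 and 0.7. Pf4 made up 29.8% to 68.8% of the per-kilobase sum of the 6 genes in AdCL of experiment 1, 80.5% to 86.3% in AdTGFb1 of experiment 1, 84.5% to 89.8% in AdCL of experiment 3 and 94.4% to 97.9% in AdTGFb1 of experiment 3. The Pf4 share in AdCL of experiment 1 thus lay below that of every other library.

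**Figure D3:**
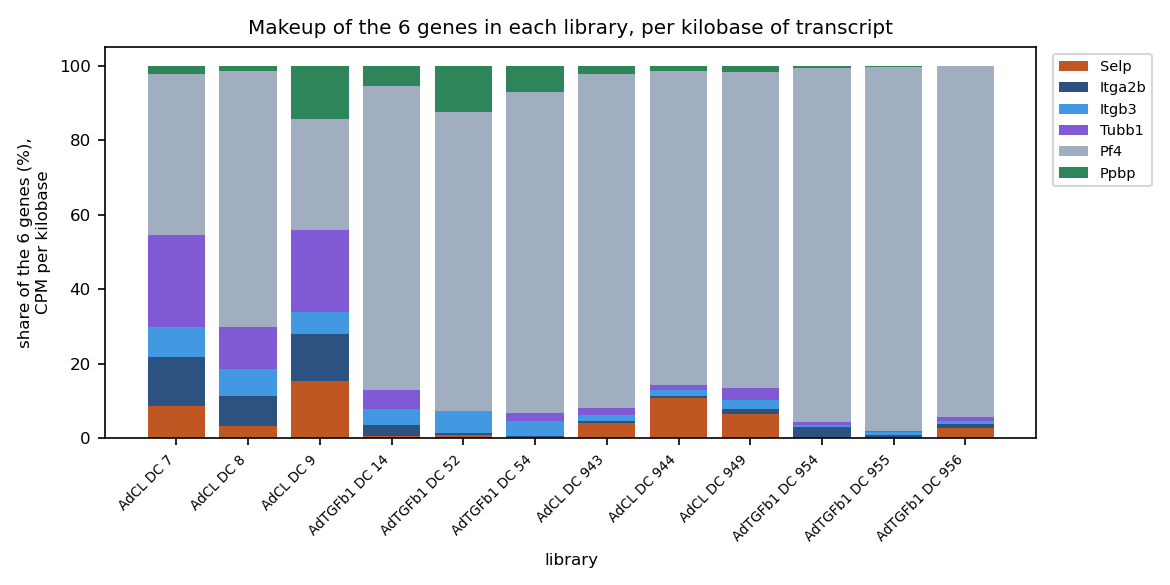
Share of each of the 6 genes in their summed CPM per kilobase, in percent, 1 bar per library. Pf4 takes 29.8% to 68.8% in the AdCL libraries of experiment 1 and at least 80.5% in the other 9.

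Over the 12 libraries, Pearson's r of log2 CPM between pairs of the 6 genes ran from -0.53 (Pf4 and Ppbp) to 0.86 (Tubb1 and Itga2b), with 4 of 15 pairs negative. These are descriptions over libraries that share vector and experiment. With the group means taken out, r of Tubb1 and Itga2b was 0.52 and the range over pairs was -0.47 to 0.70. The genes whose log2 CPM was most like the mean of the 6 were Map4k4, a kinase (r = 0.97 over 12 libraries), followed by Lilrb4a and Lilr4b, inhibitory receptors of leukocytes, Dhx15, Nktr, Tmem131, Ahr, Gm11545, Slc38a1 and Zc3hav1 (r = 0.96). None of these 10 is in the platelet lists. With the group means taken out, 0 of the 10 remained among the nearest 10. The nearest genes were Dusp16 for Selp, Wdr91 for Tubb1, Gm7120 for Itgb3, Zxdb for Pf4 and Golt1b for Ppbp, with r of 0.96, 0.97, 0.97, 0.88 and 0.93.

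Further genes of the lineage show how far the name platelet fits. The GPIb-IX-V complex, the platelet's receptor for von Willebrand factor, was seen mainly in AdCL of experiment 1. Gp9 had 82, 2 and 40 counts in AdCL DC 7, 8 and 9, 4 in AdCL DC 943 and 0 in the other 8 libraries. Gp1ba had 46, 33 and 19 counts in the same 3 libraries, 0, 5 and 3 in AdTGFb1 of experiment 1 and 0 in all 6 libraries of experiment 3. Pooled over its 3 libraries, AdCL of experiment 1 was at least 56.6-fold higher than AdTGFb1 of experiment 1 for Gp9 and at least 40.3-fold higher than AdCL of experiment 3 for Gp1ba, with the floor of 3 counts taken over the group. Gp1bb had 7, 18 and 7 counts in AdCL of experiment 1, 10 in AdTGFb1 DC 14, 6 in AdTGFb1 DC 956 and 0 elsewhere. Gp5 did not share this pattern, with 8, 2 and 4 counts in AdCL of experiment 1 and up to 37 counts in AdCL DC 944. Clec1b, the podoplanin receptor CLEC-2, was present throughout (3 to 45 counts) and did not pass over both experiments (-1.02 ± 0.70, adjusted p = 0.365). Gata1, a transcription factor of megakaryocytes and red cell precursors, had 9 counts in AdCL DC 944 and 0 in the other 11 libraries. Also chosen after their values were seen, Gp6, the collagen receptor, had 23, 13 and 20 counts in AdCL of experiment 1, 6 in AdTGFb1 DC 954 and 0 elsewhere. Mmrn1, an α-granule protein that lymphatic endothelium also makes, had 147, 88 and 74 counts in AdCL of experiment 1, 23 in AdTGFb1 DC 54, 4 in AdTGFb1 DC 955 and 0 elsewhere. Gp9, Gp1ba and Gp6 thus had most of their counts where Itga2b and Tubb1 were high, in AdCL DC 7, 8 and 9, while Gp5 and Clec1b did not follow them. In experiment 1 the log2 fold change with AdTGFb1 was above 0, with no call, for P2ry12 (0.36 ± 0.56), P2ry1 (1.99 ± 0.97) and F2rl2 (0.88 ± 0.58). The transcription factor Nfe2 was at 0.70 ± 1.78. P2ry1 and F2rl2 are named after their values were seen. Over the whole receptor list, 11 of 17 genes had their highest group mean in AdCL of experiment 1.

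**Figure D4:**
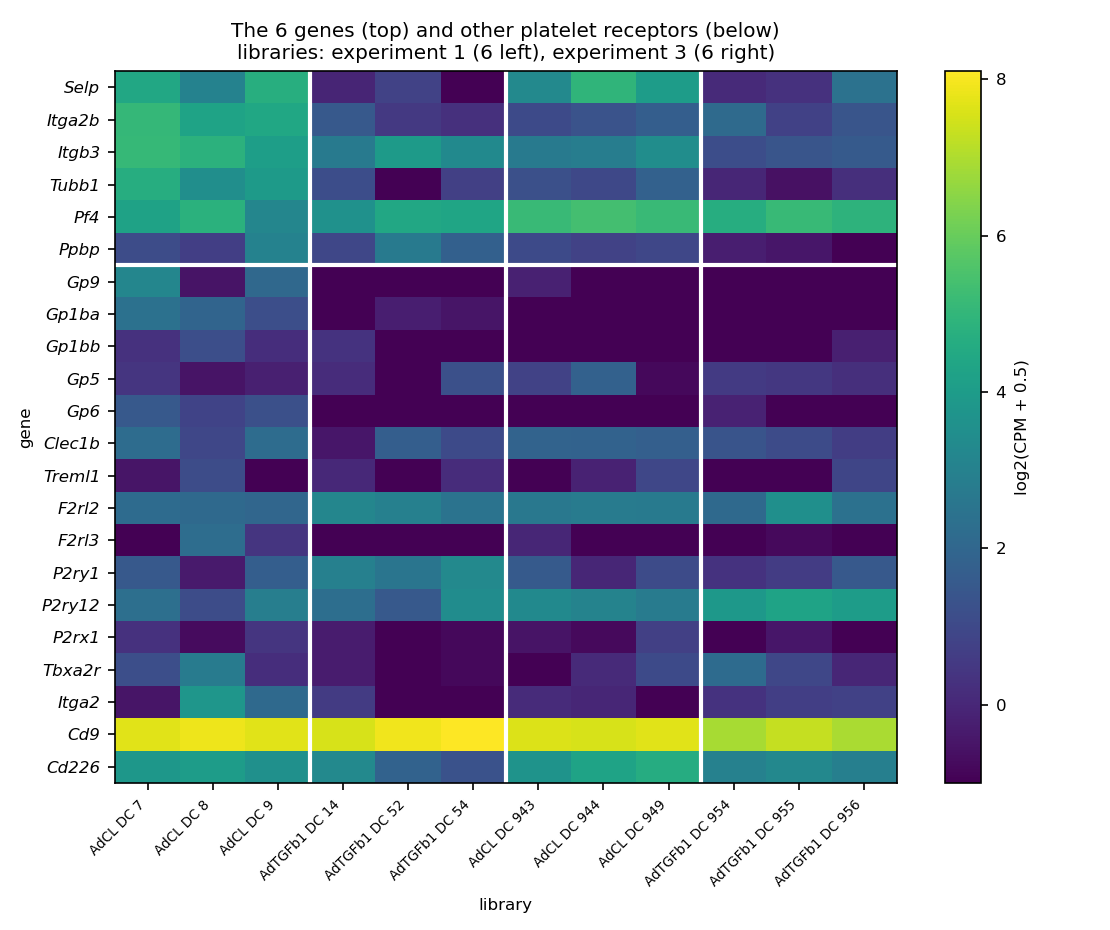
Level of the 6 genes (above the white line) and of other platelet receptor genes (below it) in each of the 12 libraries, as the colour of log2(CPM + 0.5), with white lines between the 4 groups. Gp9, Gp1ba and Gp6 stand out in AdCL DC 7, where Gp9 and Gp1ba had 82 and 46 counts, and the darkest colour is no count.

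Of 62 other platelet and megakaryocyte genes in 4 lists, 53 could be tested. Over both experiments 7 fell with AdTGFb1, 3 rose and 43 did not pass, which is 18.9% called beside 17.2% of all genes, a share near the background. The median log2 fold change was -0.66, beside -0.00196 over all genes. With a term for sex 4 fell and 1 rose, and without AdTGFb1 DC 955 11 fell. In experiment 1, 13 fell and 5 rose (34% called, beside 24.7% of all genes, median -0.86), or 8 fell without AdTGFb1 DC 52. Some genes, such as Nrgn and Mmrn1, both called lower there, passed the filter through their counts in AdCL of experiment 1. Such genes could only come out lower, so nothing is read from this share or median. In experiment 3, edgeR called 3 lower and 0 higher (5.66% called, beside 6.43%, median 0.05); 3 were higher at an unadjusted p under 0.05, and DESeq2 called 1 higher. Of all 62, 34 had their highest group mean in AdCL of experiment 1 (54.8%, beside 34.2% of the 17291 genes with any count). By list this was so for 11 of 17 receptors, 8 of 12 granule cargo genes, 13 of 22 cytoskeleton and signalling genes and 2 of 11 transcription factors.

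Among 12 tested receptors, Cd226, an adhesion receptor that T and NK cells also carry, fell (-1.37 ± 0.35, adjusted p = 0.0105, or 0.064 with a term for sex), and 11 did not pass. Of 12 granule cargo genes 3 fell. Srgn, the proteoglycan that packs granules in many blood cells, fell from 1127 ± 170 to 481 ± 103 CPM in experiment 1 and from 834 ± 189 to 472 ± 91.8 CPM in experiment 3 (-1.02 ± 0.15 over both, adjusted p = 8.66e-05). Vwf, which endothelium also makes, was lower by a log2 fold change of -0.69 ± 0.16 (adjusted p = 0.00571, or 0.0519 with a term for sex). Timp3, a protease inhibitor of the matrix, fell by 1.77 ± 0.59 (adjusted p = 0.047). Its call was lost with a term for sex (0.35) and without any 1 of AdCL DC 7, 8, 9 and 944 and AdTGFb1 DC 14, 52, 54 and 954 (0.0657 to 0.159). Within experiment 1 edgeR's test called Srgn, Cd226, Vwf and Timp3 lower. Within experiment 3 it called Srgn (adjusted p = 0.006) and not Cd226 (0.155), Vwf (0.351) or Timp3 (0.845).

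Of 20 tested cytoskeleton and signalling genes 3 fell and 3 rose. Nrgn, a calmodulin-binding protein, had 160, 59 and 175 counts in AdCL DC 7, 8 and 9, 5, 0 and 2 in AdTGFb1 of experiment 1, 8, 0 and 8 in AdCL of experiment 3 and 0, 0 and 1 in AdTGFb1 of experiment 3. It fell over both experiments (-5.52 ± 1.05, adjusted p = 0.00123), but experiment 3 alone gave an adjusted p of 0.143. Plek, a substrate of protein kinase C that leukocytes also hold in quantity, fell by 0.66 ± 0.12 (adjusted p = 0.00116). Tbxas1, thromboxane synthase, rose by 0.94 ± 0.21 (adjusted p = 0.00384) and Ptgs1, cyclooxygenase 1, by 1.11 ± 0.26 (adjusted p = 0.0061, or 0.0708 with no term for the experiment and 0.0577 with a term for sex). Both enzymes are also made by macrophages. Rasgrp2, an activator of Rap1, fell by 1.77 ± 0.58 (adjusted p = 0.0425) and Fermt3, an integrin activator of all blood cells, rose by 0.38 ± 0.12 (adjusted p = 0.035); both are named after their values were seen. Within experiment 3 alone edgeR's test called 0 of the 20 genes. There the adjusted p was 0.0729 for Plek, 0.44 for Tbxas1, 0.187 for Ptgs1, 0.234 for Rasgrp2 and 0.601 for Fermt3. The log2 fold change of Tbxas1 was 1.60 ± 0.18 in experiment 1 and 0.28 ± 0.17 in experiment 3. Among 9 tested transcription factors the smallest adjusted p over both experiments was 0.243.

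Of 7 tested ligands and receptors of the 6 proteins, 2 fell and 5 did not pass, beside 10.4% of all genes called lower and 17.2% called either way. With so few genes, nothing is read from that count. Both are P-selectin ligands on leukocytes. Selplg, which encodes PSGL-1, fell by 0.40 ± 0.11 (adjusted p = 0.0155, or 0.0623 without AdCL DC 944). By edgeR's test Selplg was called within experiment 3 (adjusted p = 0.00831) and not within experiment 1 (0.292). Cd24a fell by 0.91 ± 0.26 (adjusted p = 0.0205). That call did not hold in the fit without the experiment (0.307) or without AdCL DC 944 (0.0556) or AdTGFb1 DC 954 (0.0504) or 956 (0.0571). In experiment 3 Cd24a fell from 110 ± 35.4 to 34.9 ± 11.5 CPM (-1.65 ± 0.26, adjusted p = 0.000272), and in experiment 1 it did not pass (-0.19 ± 0.25, adjusted p = 0.633).

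Of 17 tested family relatives 5 fell, 2 rose and 10 did not pass, which is 41.2% called beside 17.2% of all genes. Among integrins, Itga5, the fibronectin receptor chain, fell by 1.00 ± 0.12 (adjusted p = 1.13e-05), and Itgb5, another partner of αv, rose by 1.38 ± 0.15 (adjusted p = 7.48e-06). Itgb5 went from 71.0 ± 23.7 to 220 ± 42.1 CPM in experiment 1 and from 187 ± 16 to 412 ± 28.3 CPM in experiment 3. Its direction was opposite to that of Itgb3, which shares the αv partner. Among β-tubulins, Tubb6 fell by 0.82 ± 0.14 (adjusted p = 0.000322), in the direction of Tubb1 but at 184 to 479 CPM by group mean. Tubb5, named after its value was seen, rose by 0.48 ± 0.12 (adjusted p = 0.00966), opposite to Tubb1. By edgeR's test Tubb5 was called in experiment 1 (0.77 ± 0.13, adjusted p = 0.000159) and not in experiment 3 (0.18 ± 0.13, adjusted p = 0.525).

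Markers of other cells moved with the groups. The summed level of 20 endothelial genes ran from 383 to 1148 CPM in AdCL of experiment 1, 162 to 191 in AdTGFb1 of experiment 1, 159 to 258 in AdCL of experiment 3 and 243 to 345 in AdTGFb1 of experiment 3. In experiment 1, 14 of the 20 fell with AdTGFb1 and 0 rose (70% called, beside 24.7% of all genes, median -3.87). Among them were Pecam1, a junction protein (-2.87 ± 0.39, adjusted p = 1.21e-05), and Cdh5, the endothelial cadherin (-3.47 ± 0.47, adjusted p = 1.23e-05). In experiment 3, edgeR called 0 of the 20 and so did DESeq2, with 1 lower and 4 higher at an unadjusted p under 0.05. Within AdCL of experiment 1 the order depended on the gene. DC 8 had the most endothelial signal, 1148 CPM, and the least Selp, Tubb1, Itga2b and Ppbp. It also had the most Pf4, 27.6 CPM, and its Itgb3, 28.4 CPM, lay between those of the other AdCL libraries of experiment 1. Whether the order of so few libraries bears on an endothelial source was not tested. In experiment 3 the endothelial sums of the vectors overlapped, and every AdCL library had more Selp than every AdTGFb1 library. Of a mean sum of 174 CPM in AdTGFb1 of experiment 1, Cdh5 and Pecam1 held 11.1 CPM each, so most of it came from other genes of the list. The part of endothelium in the level of Selp was not tested in either experiment.

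Mast cell and basophil genes summed to 179 to 291 CPM in AdCL of experiment 1 and 46.0 to 76.0 CPM in AdTGFb1 of experiment 1, against 140 to 180 and 99.5 to 119 CPM in experiment 3. The signal came from few of the 10, chiefly Kit, a growth factor receptor, and 6 were at 0 in all libraries. Erythroid genes summed to at most 4.95 CPM. Of 12 DC genes, 7 fell with AdTGFb1 over both experiments and 1 rose (Sirpa, named after its value was seen), beside 10.4% and 6.78% of all genes, with a median log2 fold change of -0.45. Those that fell include the transcription factors Zbtb46 (-1.63 ± 0.17, adjusted p = 4.57e-06) and Irf4 (-1.36 ± 0.16, adjusted p = 1.36e-05) and the growth factor receptor Flt3 (-1.30 ± 0.15, adjusted p = 1.32e-05). Of 12 macrophage genes 9 rose over both experiments, beside the same 6.78%, with a median of 0.92, and their sums ran from 3049 to 3929 and 7841 to 10907 CPM in AdCL and AdTGFb1 of experiment 1 and from 6608 to 8411 and 14342 to 18090 CPM in experiment 3. Neutrophil genes summed to 47.1 to 101 CPM in all. The part of any of these cells, or of sex or a shift between DC and macrophage genes, in the levels of the 6 genes was not tested.

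**Figure D5:**
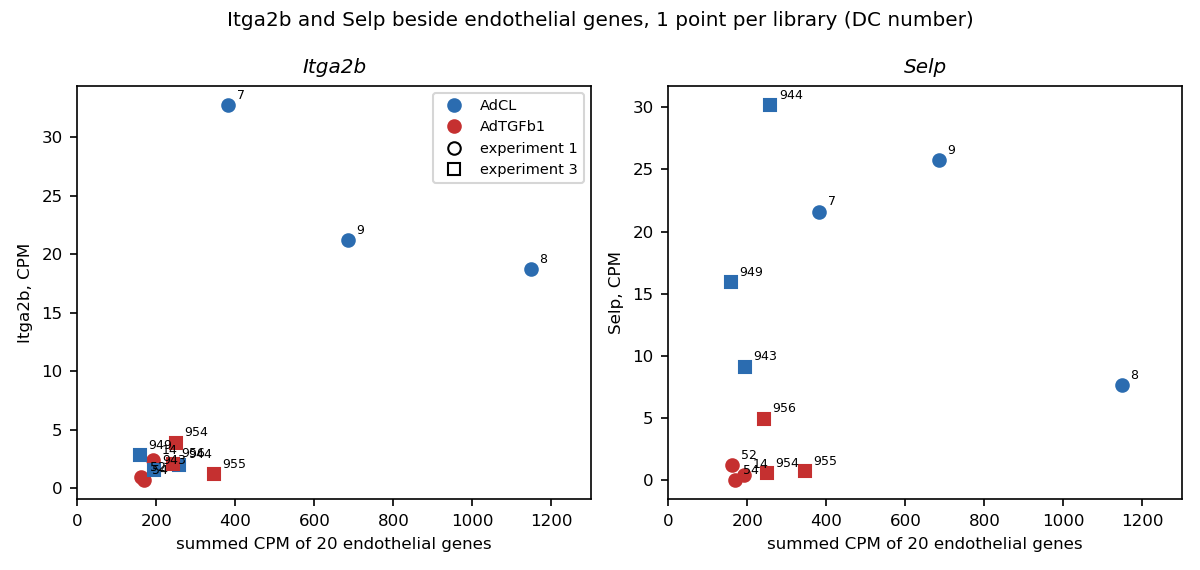
Itga2b (left) and Selp (right) in CPM against the summed CPM of 20 endothelial genes, 1 point per library with its DC number, AdCL blue, AdTGFb1 red, circles for experiment 1 and squares for experiment 3. AdCL DC 8 is farthest right at 1148 CPM with 7.66 CPM of Selp, and for Selp the AdCL squares lie above the AdTGFb1 squares.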

How the data were processed

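RNA was sequenced from 12 libraries of CD11b DCs. The deposited table holds the authors' raw read counts for 24391 gene symbols. The tools listed in the submitters' processing notes, with no role or order, are STAR 2.5.0c, HTSeq, DESeq2, cutadapt 1.9.1, Trim Galore 0.4.1, FastQC 0.11.4 and bcl2fastq, and the build is mm9. Per the labels' protocols, polyadenylated RNA went through a directional kit; which annotation was counted, and with which strand setting, is not given in the sources used here, so a gene and its antisense partner may share reads.

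Comparisons used edgeR 4.0.16 in R 4.3.3: TMM, filterByExpr by the 4 groups (13221 genes left, 7100 others without a count), and the two-sided quasi-likelihood F test, with Benjamini-Hochberg adjustment over all genes tested and calls at an adjusted p under 0.05. The fit over both experiments had the experiment as a term; a 4-group fit gave the effect within each experiment and their difference, the interaction. SE is the effect over the square root of F. The tests were checked on simulated data. Alternatives were DESeq2 1.42.0, RLE size factors, other filters, no experiment term, a sex term and leaving out each library. Similarity was Pearson's r of log2 CPM with a prior count of 2. Lengths are the longest transcripts of another annotation build, from which no coordinates were taken. Floors cover counting error only, since reads after PCR are not independent molecules.

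The 6 genes and the lists were chosen with earlier results of these data known. Named besides them are 88 genes: a set fixed by symbol, up to 4 per list with the smallest adjusted p over both experiments and at least 0.5 CPM, the 10 genes most like the mean of the 6 and the 3 most like each. Some of these are not reported here. Others are said to have been chosen after their values were seen.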

Additional observations from a re-analysis of the deposited data

Results flagged for a closer look

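The effect of AdTGFb1 differed between the experiments for Itga2b by 4.34 on the log2 scale (-4.16 in experiment 1, 0.17 in experiment 3), given with no p because the gene was chosen on these data. AdCL was all male in experiment 1 and all female in experiment 3, so in AdCL sex and experiment cannot be told apart. The interaction of vector and experiment passed edgeR's test for 18 of the 88 other named genes, not all of which could be tested. The share over all genes tested was 6.02%. Many of the named genes were picked by their values in these libraries, so nothing is read from that count beside this share. Of the 18, Cdh5 (adjusted p = 0.000126), Ptprb (4.73e-05), Pecam1 (0.000494), Plvap (0.00258) and Cldn5 (0.00798) are in the endothelial list. Over that whole list 11 of 20 passed. Sele, an endothelial gene counted here with the family relatives, also passed (0.0286, lost without AdCL DC 9 or 949 or AdTGFb1 DC 52, 54 or 956, at 0.0529 to 0.0796). Ptprb, a phosphatase of endothelium, stood at 120 and 1.94 CPM in AdCL and AdTGFb1 of experiment 1 and at 19.8 and 28.8 CPM in experiment 3. Sele had no count in AdTGFb1 of experiment 1, so its fitted change is not given.

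Of the named genes in the platelet lists, it passed for Tbxas1 (adjusted p = 0.00251) and for Timp3 (0.0298). Over all 53 tested genes of these lists, 2 interactions were called lower and 4 higher. The others, named after their values were seen, were Sdpr (0.000494), Sparc (0.000539), Thbs1 (0.0114) and Mylk (0.0212). That of Timp3 was lost without AdCL DC 8, 9, 943 or 949 or AdTGFb1 DC 54, 955 or 956 (0.051 to 0.0844). Among named partners and relatives of the 6 genes, the interaction passed for Fn1 (3.85e-06), Itgav (0.0103) and Cd24a (0.0143, or 0.0501 without AdTGFb1 DC 52). Podxl (0.000934) and Itgb2 (0.0218) of the same lists passed as well, named after their values were seen. Fn1, fibronectin, stood at 578 and 7846 CPM in AdCL and AdTGFb1 of experiment 1 and at 1136 and 455 CPM in experiment 3. It also passed for Kit (0.00588) and Gata2 (0.0407), genes of the mast cell list, and for the neutrophil gene S100a9 (0.0464), which was lower with AdTGFb1 in both experiments (-6.11 and -2.94). That of Gata2 was lost without AdCL DC 7, 8, 9, 943 or 949 or AdTGFb1 DC 52, 54 or 955 (0.0538 to 0.128), and that of S100a9 without AdCL DC 7, 9, 943 or 949 or AdTGFb1 DC 14, 54, 955 or 956 (0.0663 to 0.121). Of the genes whose levels resembled those of the 6, it passed for Map4k4 (0.0233), Slc38a1 (0.0196), Rbm39 (0.00267) and Rlim (0.00753), each with a larger fitted decrease in experiment 1. They had been picked for likeness to the 6, or to 1 of them, in these same libraries, so nothing is read from these calls. The call of Map4k4 was lost without AdCL DC 7, 9, 943 or 949 or AdTGFb1 DC 54 or 955 (0.0549 to 0.0892), and that of Slc38a1 without AdCL DC 7 or 949 or AdTGFb1 DC 52 or 54 (0.0556 to 0.0926).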

How the results depend on the processing

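Of 714 values of 65 main results under other settings, 671 stayed within 1.5 times the count or 1 SD, and no called value changed sign. Values near 0 that were not called did: Ppbp in experiment 1 (-0.65 to 1.38), Pf4 in experiment 1 (-0.33 to 0.42) and Itga2b in experiment 3 (-0.36 to 0.49). For the genes named, 2733 of 2903 values kept their call and 170 lost it. The cause of the following shifts was not tested. With DESeq2, called genes were 641 for lower in experiment 3 against 1, 423 for higher with AdTGFb1 within experiment 3 and 780 for a higher interaction; endothelial genes called lower over both experiments were 2, and platelet genes called higher in experiment 3 were 1. With no low-count filter, 392 genes were higher in experiment 3 and 715 had a higher interaction; platelet genes called lower were 11 over both experiments and 5 in experiment 3, with 1 higher there, and endothelial genes were 3 lower over both and 3 higher in experiment 3. With no term for the experiment, 1 endothelial gene was lower and 1 platelet gene higher, and Itga2b was at -2.80. With sex as a term, 582 genes were called higher over both experiments, 4 platelet genes were lower and 1 higher, and Itga2b was at -0.68. On deviations from group means, 0 of the 10 genes most like the 6 were shared, and 9 were with a prior count of 0.5.

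Leaving out 1 library at a time gave these ranges. Within experiment 3, 149 to 296 genes were higher and 349 to 603 lower, lowest for both without AdTGFb1 DC 956; the higher count also fell to 171 without AdCL DC 944 and 170 without AdTGFb1 DC 954, and the lower one to 350 without AdCL DC 944. Endothelial genes there were 0 to 3 higher (3 without AdCL DC 944, 1 without AdTGFb1 DC 954) and platelet genes 0 to 1 higher (1 without AdCL DC 8, 944 or 949 or AdTGFb1 DC 954). Over both experiments 0 to 2 endothelial genes were lower (2 without AdTGFb1 DC 955, 1 without AdCL DC 943 or 949) and 5 to 11 platelet genes (11 without AdTGFb1 DC 955). In experiment 1, 8 to 17 platelet genes were lower (8 without AdTGFb1 DC 52). Experiment 3 against 1 gave 227 to 358 lower genes (227 without AdCL DC 949). The interaction gave 274 to 541 higher (274 without AdCL DC 949) and 212 to 415 lower genes (212 without AdTGFb1 DC 52). In experiment 1, Itga2b ran from -4.88 to -3.84, Ppbp from -0.65 to 1.38 (highest without AdCL DC 9) and Selp from -6.31 to -4.43, and in experiment 3 Selp ran from -4.83 to -2.55. No paired analysis was possible because the groups share no replicate number. Ppbp, with 316 counts in all, and the platelet receptors are limited by depth.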
